A study of Mus musculus with 24 samples.

Results

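The response of Batf and Batf3 double knockout (DKO) CD4 T cells to 2 days of culture was read from 6 of 24 arrays. By their sample titles, 3 arrays hold DKO cells at day 2 and 3 hold DKO cells at day 0, and the 6 wild-type (WT) arrays of the same days were used for the genotype difference. All samples started from naive CD4 T cells of strain 129SvEv mice, and the mice's ages are not given. The labels write the genotype as Batf1/3DKO. Day 2 cells of both genotypes were cultured under TH2 conditions with soluble anti-CD3e and anti-CD28 that were crosslinked by a plate-bound antibody to hamster IgG, and day 0 cells of both genotypes were not stimulated. The labels give no anti-CD3e dose for day 2 and do not say whether the 3 replicates came from separate mice or cultures, so every p-value below reflects only how far these arrays scatter, a scatter that may be technical. The remaining 12 arrays, taken at day 4, entered the common estimate of the spread.

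Batf and Batf3 are basic leucine zipper factors of the AP-1 superfamily. They pair with a Jun protein, bind DNA together with Irf4 or Irf8 at composite sites, and are known from mouse T cells for their part in TH17, TH2 and effector differentiation. Stimulation through the T cell receptor and CD28 takes a naive T cell out of quiescence: the cell makes interleukin-2 and its high-affinity receptor, grows, switches on glycolysis and lipid synthesis and enters division, and under TH2 conditions it begins to express Gata3 and the cytokines interleukin-4 and interleukin-13. How much of this sequence cells without Batf and Batf3 carried out is the question of the comparison.

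Levels are RMA intensities on a linear scale, as mean ± SD over 3 arrays where no single arrays are listed, and folds are ratios of geometric means with a 95% confidence interval (CI) from limma. A gene is said to have risen, fallen or passed the test where its Benjamini-Hochberg adjusted p over 19938 genes was under 0.05. Intensities near or below 28.6, the median of all probe set means, may be background, and folds against such levels understate the change. Array medians of the whole series ran from 26.4 to 31.6, arrays of one group correlated at 0.983 to 0.992, and the first principal component, with 52.5% of the variance, separated day 0 from the stimulated arrays.

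At day 2 the DKO cells had moved far from their naive state. In DKO cells 3045 genes rose, 15.3% of those tested, and 2654 fell, 13.3%; these shares are the background for each list count below. Of these, 1322 rose and 802 fell at least 2-fold, and 95 rose and 17 fell at least 10-fold. The median change of all genes was -0.01 on the log2 scale. In DKO cells every day 2 array lay above every day 0 array for 3842 of the 19938 genes and below for 3672. The 15 largest rises and 15 largest falls named below were picked from such genes, so their lack of overlap follows from the choice. In WT cells 3934 genes rose (19.7%) and 4083 fell (20.5%). The 2 genotypes shared 4708 called genes, 82.6% of the DKO calls and 58.7% of the WT calls. The difference between the DKO and the WT response passed the test for 209 genes. It was positive for 61 of them (0.306%) and negative for 148 (0.742%). In bulk samples, fewer cells of a type and less RNA per cell cannot be told apart.

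The targeted genes were read first. Batf stood at 29.0, 38.4 and 30.1 on the DKO day 2 arrays and at 30.9, 28.2 and 34.5 on the DKO day 0 arrays, against 819, 781 and 565 on the WT day 2 arrays and 114, 156 and 134 on the WT day 0 arrays. The DKO days overlapped and every DKO array lay below every WT array. In DKO cells Batf did not pass the test (adjusted p = 0.87), in WT cells it rose 5.33-fold (95% CI 4.26 to 6.65), and the responses differed by -2.36 ± 0.22 on the log2 scale (SE, adjusted p = 2.67e-06). Batf3 averaged 26.6 ± 4.80 in DKO cells at day 2 and 25.7 ± 4.48 at day 0, with 35.8 ± 7.33 in WT cells at day 2 and 30.4 ± 2.75 at day 0, so at these days it is too dim in both genotypes to check its label. Batf2, a relative of both that the genotype label does not name, was 37.5 ± 5.83 at day 2 and 41.1 ± 5.58 at day 0 in DKO cells (adjusted p = 0.58).

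Irf4, which partners Batf at composite sites, was induced without Batf. Its level was 805, 664 and 652 on the DKO day 2 arrays and 32.2, 26.4 and 37.1 on the DKO day 0 arrays. The groups did not overlap, and Irf4 rose 22.3-fold (95% CI 16.4 to 30.3) with an adjusted p of 2.87e-14. WT cells held 1123 ± 25.7 at day 2 and 32.8 ± 7.90 at day 0, and the genotype difference in the response did not pass the test (-0.65 ± 0.30, SE, adjusted p = 0.32). Irf8, the related factor that can take the same place beside Batf, rose 2.03-fold (95% CI 1.53 to 2.69) in DKO cells. In the list of interferon regulatory factors 2 of 8 measured members rose and 4 fell. The 4 that fell act in interferon responses: Irf1 (6.10-fold), Irf2 (2.50-fold), Irf7 (5.52-fold) and Irf9 (4.32-fold).

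Of 19 AP-1 factors 2 rose and 7 fell in DKO cells. The early response factors Jun, Fos and Fosb were lower at day 2 than at day 0 in DKO cells. Jun, the common Batf partner, measured 83.2, 74.8 and 65.0 at day 2, against 698, 486 and 758 at day 0. It fell 8.60-fold (95% CI 6.46 to 11.5). None of the day 2 arrays reached a day 0 array. Fos fell 4.70-fold and Fosb 3.92-fold, and Bach2, a repressor that opposes AP-1 at its sites, fell 1.89-fold. The 2 that rose were Nfil3, a basic leucine zipper factor that regulates TH2 cytokine genes, at 20.9-fold (95% CI 15.8 to 27.6), and the stress-induced Atf3 at 2.54-fold. Fosl1 stood at 20.5 ± 2.47 at day 2 and 18.7 ± 0.817 at day 0 and did not pass the test. In this list the genotype difference passed the test for 1 gene, Batf itself.

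**Figure D1:**
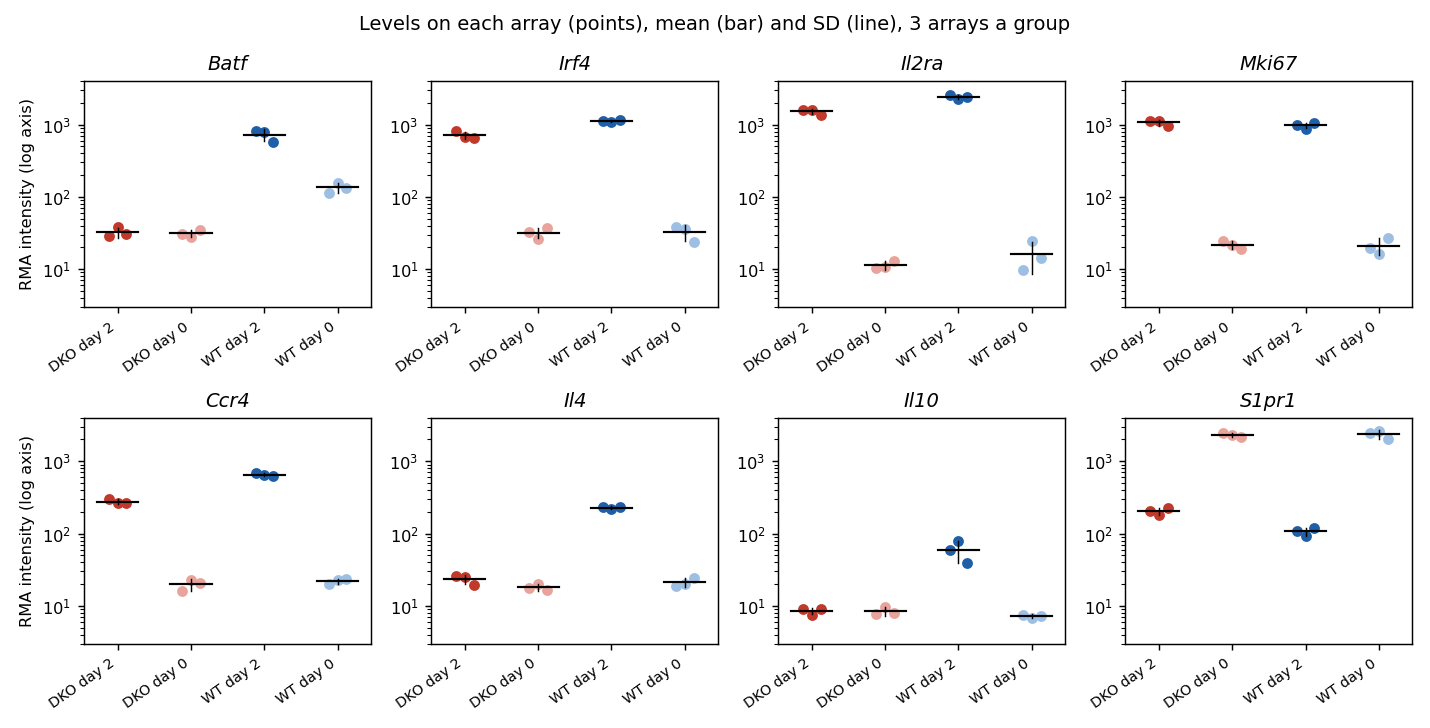
RMA intensity on a log axis of 8 genes on each of 12 arrays, with points for arrays, bars for the mean and lines for the SD. Batf stayed near 32 in DKO cells at both days, Irf4, Il2ra, Mki67 and Ccr4 were higher at day 2 in both genotypes, S1pr1 was lower, and Il4 and Il10 stayed low in DKO cells at day 2.

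The interleukin-2 axis came on strongly. Il2ra, the alpha chain that makes the interleukin-2 receptor high-affinity, measured 1591, 1586 and 1375 on the DKO day 2 arrays and 10.4, 10.5 and 13.0 on the DKO day 0 arrays. The groups lay far apart, and Il2ra rose 135-fold (95% CI 99.8 to 182; adjusted p = 3.00e-18). The beta chain Il2rb rose 11.98-fold (95% CI 9.77 to 14.7), with 1026 ± 117 at day 2 and 86.4 ± 18.0 at day 0, and the cytokine itself, Il2, rose 7.36-fold (95% CI 3.87 to 14.0). The Il2rb response was smaller than that of WT cells (difference -1.07 ± 0.20, log2, SE, adjusted p = 0.0071): day 2 levels were near each other, at 1026 ± 117 in DKO and 1116 ± 79.7 in WT cells, while day 0 levels were 86.4 ± 18.0 in DKO and 44.7 ± 7.78 in WT cells. For Il2ra (-0.26 ± 0.30, adjusted p = 0.71) and Il2 (-0.89 ± 0.63, adjusted p = 0.53) the difference did not pass the test.

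Signalling genes downstream of cytokine receptors changed in both directions. In the STAT and SOCS list 6 of 14 rose and 6 fell, and 2 genotype differences were negative. The feedback inhibitors Cish and Socs1, targets of the interleukin-2 activated Stat5, rose 5.14-fold and 1.71-fold, whereas Socs3, which restrains interleukin-6 family signals, fell 2.50-fold. Stat2 and Stat4, used by interferon and interleukin-12, fell 2.85-fold and 1.80-fold. Stat3, which carries signals of interleukin-6 and interleukin-21, showed a genotype difference. It measured 199, 174 and 159.9 on the DKO day 2 arrays and 408, 411 and 386 on the DKO day 0 arrays, against 314, 294 and 223 on the WT day 2 arrays and 282, 283 and 307 on the WT day 0 arrays. The DKO days did not overlap, and the change in DKO cells was lower than in WT cells (difference -1.10 ± 0.18, log2, SE, adjusted p = 0.0019).

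Among 27 cytokine receptor chains 4 rose and 12 fell. Il18r1, which binds interleukin-18, measured 13.5, 17.0 and 13.7 at day 2, against 455, 404 and 399 at day 0 in DKO cells, and fell 28.6-fold (95% CI 21.6 to 37.7). The groups did not overlap, and the day 2 values lie at background. Il6ra fell 5.21-fold (95% CI 4.04 to 6.73), and the transforming growth factor receptors Tgfbr2 and Tgfbr3 fell 4.29-fold and 3.14-fold. Il15ra fell 1.96-fold. Il12rb1, a chain of the interleukin-12 and interleukin-23 receptors, rose 1.54-fold (95% CI 1.28 to 1.86) in DKO cells and 3.92-fold (95% CI 3.24 to 4.73) in WT cells, a log2 difference of -1.34 ± 0.19 (SE, adjusted p = 3.69e-04).

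Factors of the calcium and NF-kB pathways changed in both directions. Of 11 NFAT, NR4A and EGR genes 4 rose and 2 fell. Nr4a3, a nuclear receptor induced by T cell receptor signals, rose 3.69-fold (95% CI 2.62 to 5.20), Nr4a1 1.90-fold, Egr3 1.91-fold and the calcineurin inhibitor Rcan1 1.51-fold, while Nfatc3 fell 1.56-fold. Of 11 NF-kB genes 4 rose, with the subunits Rel at 1.79-fold and Nfkb2 at 1.63-fold, and 5 fell. The falls included Tnfaip3, the ubiquitin-editing inhibitor of the pathway, at 4.64-fold (95% CI 3.61 to 5.95), and the IkB family members Nfkbiz (3.07-fold) and Nfkbie (2.09-fold). No gene of the 2 lists passed the test for a genotype difference.

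Genes of the MYC network and of MAP kinase inhibitors were read next. Myc, the growth regulator, measured 1640.5, 2138 and 1949.7 at day 2 and 893, 912 and 899 at day 0 in DKO cells. The arrays did not overlap and Myc rose 2.11-fold (95% CI 1.75 to 2.53); its genotype difference was -0.28 ± 0.18 (log2, SE, adjusted p = 0.49). In its network of 11 genes Mxd3 also rose (2.12-fold), and the repressors Mxd4 (1.87-fold) and Mga (1.66-fold) fell. Of 13 DUSP and Sprouty family inhibitors of MAP kinases 2 rose, Spred1 (2.47-fold) and Dusp5 (1.57-fold), and 2 fell, the larger being Dusp1 (6.78-fold, 95% CI 5.58 to 8.25). In both lists the shares that rose and fell were near the 15.3% and 13.3% of all genes. Dusp4 stood at 29.7 ± 6.91 at day 2 and 25.4 ± 4.42 at day 0 in DKO cells but rose 3.52-fold (95% CI 2.54 to 4.88) in WT cells, and its genotype difference was -1.60 ± 0.32 (log2, SE, adjusted p = 0.012).

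Division genes rose throughout. All 24 measured mitosis genes and all 29 replication genes rose in DKO cells, with median log2 changes of 4.25 and 2.55. All of them also rose in WT cells, with medians of 4.37 and 2.97. For no member of either list did the genotype difference pass the test. Mki67, the proliferation marker, measured 1135, 1119 and 949 on the DKO day 2 arrays and 24.4, 21.3 and 19.1 on the DKO day 0 arrays. Every day 2 array was above every day 0 array, and the rise was 49.6-fold (95% CI 40.3 to 61.0; adjusted p = 2.92e-19). WT cells held Mki67 at 973 ± 85.5 at day 2 and 21.2 ± 5.64 at day 0, and the difference in response was 0.08 ± 0.20 on the log2 scale (SE, adjusted p = 0.88).

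Other mitotic genes rose too. The spindle motor Kif11 measured 628, 517 and 528 at day 2 and 14.3, 12.1 and 11.7 at day 0, without overlap, and rose 44.0-fold (95% CI 37.5 to 51.6). Top2a, which untangles sister chromatids, rose 38.2-fold (95% CI 32.2 to 45.4), the chromosomal passenger Birc5 39.4-fold (95% CI 31.7 to 49.1), the checkpoint kinases Bub1 42.9-fold and Bub1b 33.0-fold, and the cyclin Ccna2 30.4-fold. The centromere proteins Cenpe and Cenpf rose 23.7-fold and 19.9-fold. Among the 15 largest rises picked from genes without overlap were also the spindle genes Hmmr (31.4-fold), Kif15 (30.6-fold) and Knl1 (29.9-fold), and Prr11 (32.5-fold).

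Replication genes rose with them. Rrm2, the inducible subunit of ribonucleotide reductase, measured 702, 659 and 652 at day 2 and 28.5, 23.6 and 30.7 at day 0 and rose 24.4-fold (95% CI 19.6 to 30.5). Tyms, which makes thymidylate, rose 13.3-fold (95% CI 10.3 to 17.2), the DNA polymerase subunit Pole 8.996-fold, the ligase Lig1 8.45-fold and the helicase subunit Mcm6 8.19-fold (95% CI 6.66 to 10.1). Of 12 measured histone genes of the replication-dependent class 10 rose, among them H1f5 (42.6-fold), H2ac4 (43.3-fold) and H2bc3 (17.3-fold), and 1, H2bc4, fell 3.14-fold. Histone paralogs are similar in sequence and may share probe signal.

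Among 25 regulators of the G1 phase 14 rose and 2 fell. The G1 kinase Cdk6 rose 4.66-fold (95% CI 3.76 to 5.77), Cdk4 2.72-fold, cyclin Ccne2 4.18-fold, the activator E2f3 8.62-fold and the repressor E2f8 22.7-fold (95% CI 16.8 to 30.6). Cdkn2c, an inhibitor of Cdk4 and Cdk6, also rose (6.79-fold). Cyclin Ccnd2 was high at both days, with 2571, 2530.5 and 2188 at day 2 and 2299, 2406 and 2312 at day 0 in DKO cells, and did not pass the test. Its arrays overlapped between the days.

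To show what the promoters of division genes hold, stretches of 120 bases before the start of 4 genes are given from RefSeq (GRCm38.p6), chosen for their motifs after values were seen. Capitals mark matches, on either strand, to CCAAT, bound by NF-Y, to TTTGAA, the cell cycle genes homology region (CHR) of G2/M genes, and to the E2F letters TTTCCCGC or TTTGGCGC. All are on the minus strand: Ccnb2 at chr9:70421555-70421674, Cdc20 at chr4:118437344-118437463, Cdk1 at chr10:69352913-69353032 and Mcm6 at chr1:128359706-128359825.
Ccnb2: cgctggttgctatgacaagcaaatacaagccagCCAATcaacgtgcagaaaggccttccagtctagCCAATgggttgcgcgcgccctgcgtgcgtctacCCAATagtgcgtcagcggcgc
Cdc20: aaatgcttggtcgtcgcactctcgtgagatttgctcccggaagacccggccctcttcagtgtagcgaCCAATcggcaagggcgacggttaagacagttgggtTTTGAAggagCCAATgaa
Cdk1: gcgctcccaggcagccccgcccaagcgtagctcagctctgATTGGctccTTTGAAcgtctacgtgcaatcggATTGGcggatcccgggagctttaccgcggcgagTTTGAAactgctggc
Mcm6: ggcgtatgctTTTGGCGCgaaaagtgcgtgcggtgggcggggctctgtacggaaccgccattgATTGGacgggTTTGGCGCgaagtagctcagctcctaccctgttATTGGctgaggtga
Ccnb2 and Cdk1, the mitotic cyclin and its kinase, rose 26.2-fold and 18.5-fold, and Cdc20, an activator of the anaphase-promoting complex, rose 8.68-fold. Over the 250 bases before the start, CCAAT was present in 15 of 20 mitosis promoters (75%) and in 38.8% of 15614 promoters of tested genes, and TTTGAA in 6 of 20 (30%), against 15.7% of all. TTTGAA was as frequent in the TH2 list, at 5 of 16 (31.2%), and stood in 4 of 18 interferon promoters (22.2%), while CCAAT was in 8 of 16 TH2 (50%) and 9 of 18 interferon promoters. The E2F letters were present in 5 of 25 replication promoters (20%), against 2.13% of all, and in 0 of 20 mitosis promoters. These matches describe the letters in the window and were not tested.

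**Figure D2:**
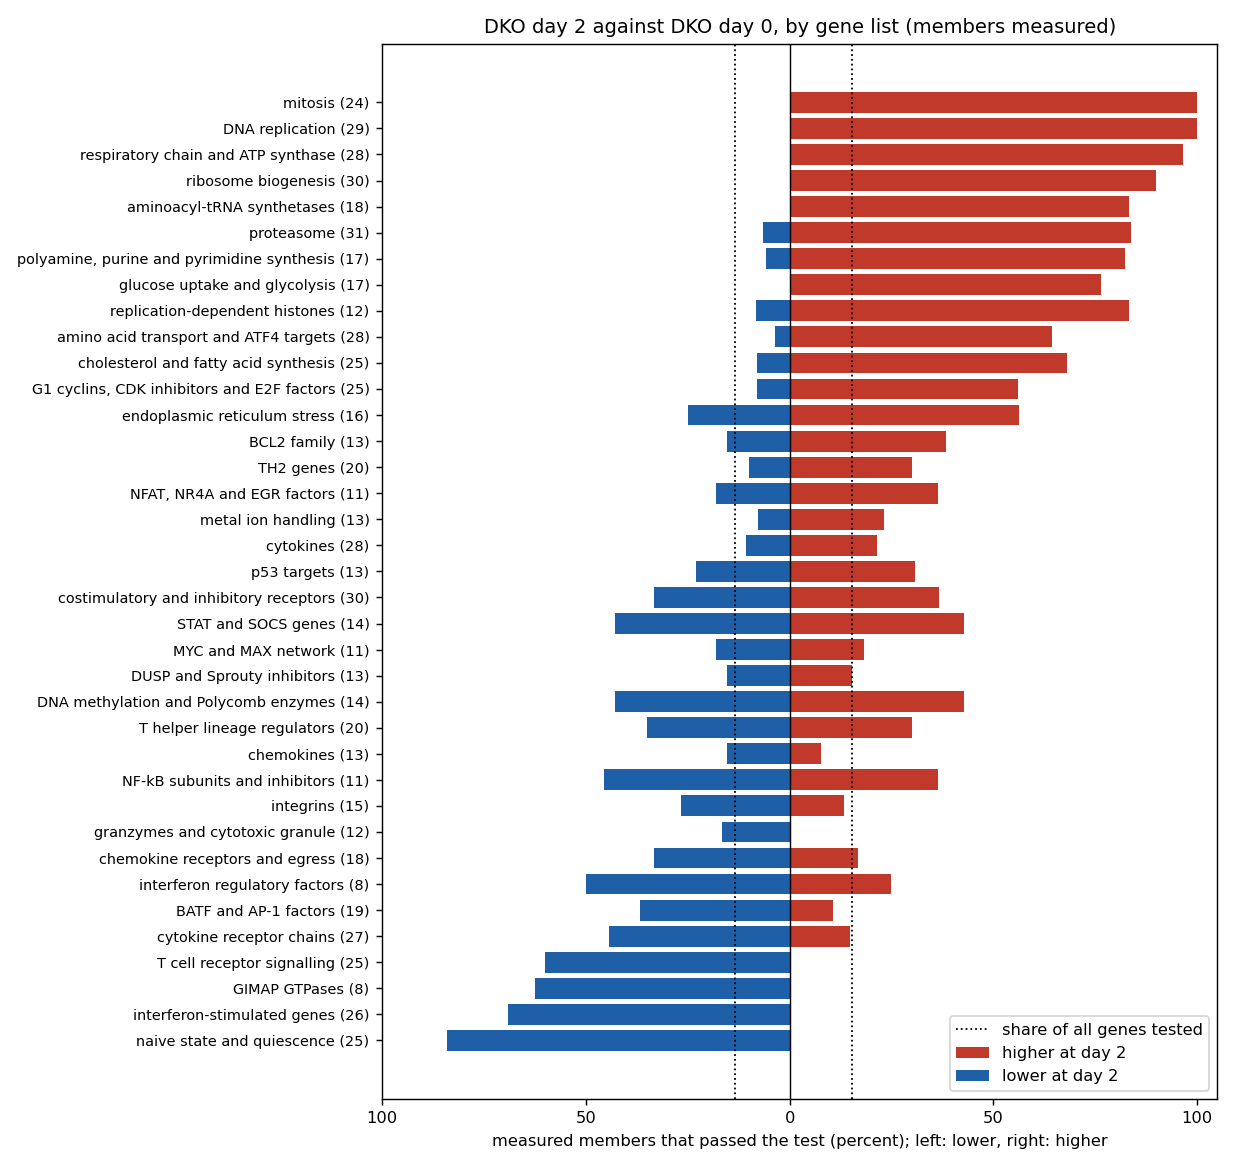
Percent of the measured members of each gene list that were higher (right) or lower (left) at day 2 than at day 0 in DKO cells, with the number measured in parentheses and dotted lines at the shares of all genes, 15.3% and 13.3%. Mitosis and replication reach 100% higher, and naive state genes, interferon-stimulated genes and T cell receptor signalling lie on the lower side.

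Biosynthetic machinery rose widely. In ribosome biogenesis 27 of 30 genes rose with a median log2 change of 1.04, and none fell. The small nucleolar RNA proteins Nhp2 and Nop58 rose 3.75-fold (95% CI 2.87 to 4.90) and 3.02-fold (95% CI 2.42 to 3.75), the methyltransferase Fbl 2.31-fold, and Wdr12, needed for large subunit assembly, 2.83-fold. Of 18 aminoacyl-tRNA synthetases, which charge tRNAs, 15 rose (median 1.10), with Yars at 2.76-fold (95% CI 2.26 to 3.36) and Kars at 2.35-fold. Polr1b, a subunit of RNA polymerase I, rose 2.03-fold. In WT cells all 30 ribosome biogenesis genes and all 18 synthetases rose, with larger medians of 1.54 and 1.55. No single member of either list passed the test for a genotype difference, and the medians were not tested.

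Nucleotide and polyamine synthesis followed, with 14 of 17 higher and 1 lower, and 1 genotype difference was negative. Odc1 and Srm, early enzymes of polyamine synthesis, rose 2.64-fold (95% CI 2.15 to 3.25) and 3.67-fold (95% CI 2.52 to 5.32), and the pyrimidine enzymes Cad and Ctps rose 2.75-fold and 3.75-fold. The member that fell was Sat1, which breaks polyamines down (2.93-fold, 95% CI 2.35 to 3.65). Tfrc, the transferrin receptor that brings in iron, measured 994, 955 and 829 at day 2 and 104, 128 and 126 at day 0 in DKO cells, with no overlap, and rose 7.78-fold (95% CI 5.87 to 10.3). In its list of 13 metal-handling genes 3 rose and 1 fell. The zinc importer Slc39a10 stood at 100.2 ± 12.4 at day 2 and 97.4 ± 8.41 at day 0 in DKO cells, while it rose 2.47-fold (95% CI 1.93 to 3.16) in WT cells, a log2 difference of -1.27 ± 0.24 (SE, adjusted p = 0.0079).

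Protein turnover and respiration rose as groups. Of 31 proteasome genes 26 rose (median 1.26) and 2 fell, with the catalytic subunit Psmb5 at 3.27-fold (95% CI 2.66 to 4.01), Psmb6 at 2.52-fold and the regulatory subunit Psmd1 at 2.80-fold. The 2 that fell belong to the immunoproteasome and its activator: Psmb10 fell 1.52-fold and Psme2 1.36-fold, both named after their values were seen. Psmb10 missed the threshold without DKO day 0 replicate 2 (adjusted p = 0.054) and Psme2 without DKO day 2 replicate 2, DKO day 0 replicate 1 or DKO day 0 replicate 3 (0.06 to 0.137). The immunoproteasome subunit Psmb8 stood at 844 ± 9.57 at day 2 and 755 ± 20.6 at day 0. In the respiratory chain and ATP synthase list 27 of 28 rose (median 1.12), including the electron carrier Cycs (4.79-fold, 95% CI 3.58 to 6.42), the ATP synthase subunit Atp5g1 (3.75-fold) and the complex I subunit Ndufb8 (3.27-fold). In WT cells 27 of the 31 proteasome genes and all 28 respiratory genes rose, with medians of 1.41 and 1.29, and none fell. Neither list held a gene with a genotype difference.

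In the endoplasmic reticulum stress list 9 of 16 genes rose and 4 fell, and 1 genotype difference was negative. Sdf2l1, an endoplasmic reticulum chaperone partner, rose 4.24-fold (95% CI 3.43 to 5.24), the factor Xbp1 2.12-fold, Manf 1.97-fold and the lectin chaperone Canx 1.98-fold. The co-chaperone Dnajb9, itself a target of Xbp1, went the other way and measured 101, 95.9 and 81.2 at day 2, against 576, 614 and 663 at day 0, a fall of 6.69-fold (95% CI 4.61 to 9.70). Its day 2 and day 0 arrays did not overlap.

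Carbon metabolism was induced, in part less than in WT cells. Of 17 genes of glucose uptake and glycolysis 13 rose in DKO cells and none fell (median log2 change 1.09, against 1.97 in WT cells), and 5 had a smaller response in DKO cells by the test of the difference. Tpi1, which interconverts triose phosphates, measured 1092, 969.9 and 889 at day 2 and 95.7, 76.6 and 58.5 at day 0 in DKO cells and rose 13.0-fold (95% CI 9.93 to 17.0). The enzymes Pgk1, Pgam1 and Aldoa rose 5.29-fold, 4.38-fold and 4.18-fold. For these 4 the difference between genotypes did not pass the test (adjusted p between 0.065 for Pgk1 and 0.33 for Aldoa).

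The 5 genes with a smaller response were the glucose transporter Slc2a3, the rate-limiting enzymes Hk2, Pfkl and Pfkp, and Slc16a1, a lactate transporter. Slc16a1 measured 118, 119.6 and 109 on the DKO day 2 arrays and 41.0, 41.2 and 30.8 on the DKO day 0 arrays, against 158, 166 and 165 on the WT day 2 arrays and 26.8, 25.1 and 23.0 on the WT day 0 arrays. It was higher at day 2 in both genotypes, and its log2 difference was -1.08 ± 0.22 (SE, adjusted p = 0.016), and it missed the threshold without DKO day 0 replicate 2 (adjusted p = 0.051). Hk2 rose 3.90-fold (95% CI 2.80 to 5.44) in DKO cells and 10.5-fold (95% CI 7.53 to 14.6) in WT cells, a log2 difference of -1.43 ± 0.33 (adjusted p = 0.030), and Slc2a3 stood at 95.6 ± 13.0 at day 2 and 70.7 ± 15.4 at day 0 in DKO cells and rose 4.10-fold (95% CI 2.91 to 5.77) in WT cells (difference -1.59 ± 0.34, adjusted p = 0.019). The differences of Hk2, Slc2a3, Pfkl and Pfkp each missed the threshold when single arrays were left out, with adjusted p up to 0.137. For Slc2a3 these were DKO day 2 replicate 3, DKO day 0 replicate 2, WT day 2 replicates 1 and 2 and WT day 0 replicate 1, and for Hk2 DKO day 2 replicate 2, DKO day 0 replicates 1 and 3, WT day 2 replicates 1 and 2 and WT day 0 replicates 2 and 3. Pfkp kept its call only without DKO day 2 replicate 1, WT day 2 replicate 3 or WT day 0 replicate 2, and Pfkl only without one of these or DKO day 0 replicate 2. Of 9 processing alternatives, 5 also ended the call of the Pfkl difference (adjusted p up to 0.125) and 3 that of Pfkp (up to 0.092), among them cyclic loess, quantile normalization and the compared groups fitted alone in both. Quantile normalization ended that of Hk2 (adjusted p = 0.057) and the compared groups fitted alone that of Slc2a3 (adjusted p = 0.051). Hif1a, the factor that drives many glycolytic genes, rose 1.44-fold (95% CI 1.23 to 1.69) in DKO cells and 2.51-fold (95% CI 2.14 to 2.95) in WT cells (difference -0.80 ± 0.16, adjusted p = 0.011); with cyclic loess normalization its DKO rise did not pass the test (adjusted p = 0.11), and with the compared groups fitted alone its difference did not (adjusted p = 0.051).

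Lipid and amino acid genes rose as well. In cholesterol and fatty acid synthesis 17 of 25 rose and 2 fell, with 3 smaller responses than in WT cells. Idi1, of the isoprenoid branch, rose 6.34-fold (95% CI 4.62 to 8.69), the sterol enzymes Sqle and Cyp51 3.93-fold and 3.81-fold, and the desaturase Scd2 10.0-fold (95% CI 6.92 to 14.5). Abcg1, which exports cholesterol, fell 3.37-fold (95% CI 2.60 to 4.35). In the list of amino acid transport and ATF4 targets 18 of 28 rose and 1 fell, and 2 genotype differences were negative. Stc2, a secreted glycoprotein induced by stress, measured 748, 709.9 and 711 at day 2 and 47.9, 37.9 and 63.2 at day 0 and rose 14.9-fold (95% CI 11.9 to 18.7), and the serine and folate pathway enzymes Psat1 and Shmt2 rose 4.42-fold and 4.24-fold. The leucine transporter subunit Slc7a5 rose 3.40-fold (95% CI 2.70 to 4.28).

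Interferon-stimulated genes fell together in DKO cells, 18 of 26, and none rose (median log2 change -1.43). Samd9l, an interferon-induced antiviral protein, measured 10.4, 7.69 and 15.1 on the DKO day 2 arrays and 466, 571 and 452 on the DKO day 0 arrays. The day 2 level is at background and the fall was 46.3-fold (95% CI 34.4 to 62.4; adjusted p = 2.81e-16). Rtp4 fell 21.1-fold (95% CI 15.3 to 29.1), the RNA sensor Ddx58 10.7-fold (95% CI 8.10 to 14.1), the immunity GTPase Irgm1 7.50-fold, Xaf1 8.16-fold and Zbp1 4.31-fold. Outside the list, the interferon-inducible genes Ifi209, Ifi208 and Slfn5 fell 17.2-fold, 10.9-fold and 14.3-fold and were among the 15 largest falls; Ifi200 family members may share probe signal. In WT cells 17 of the 26 fell, and 1 genotype difference in the list was negative.

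Ifit1 and Ifit3, antiviral RNA-binding and scaffold proteins, were named after values were seen because their promoters carry the interferon-stimulated response element (ISRE), searched as GAAA, any 2 bases, GAAA on either strand. Ifit1 fell 4.96-fold (95% CI 3.14 to 7.82), with 10.5 ± 1.18 at day 2 and 52.9 ± 11.9 at day 0, and Ifit3 fell 4.77-fold (95% CI 2.86 to 7.96), with 24.2 ± 4.09 at day 2 and 115 ± 18.7 at day 0. The stretches before their starts are on the plus strand of GRCm38.p6 (RefSeq), Ifit1 at chr19:34640769-34640888 and Ifit3 at chr19:34583399-34583528, with ISRE matches in capitals.
Ifit1: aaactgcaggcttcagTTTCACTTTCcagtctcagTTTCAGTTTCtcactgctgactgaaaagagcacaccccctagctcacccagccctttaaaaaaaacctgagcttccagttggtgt
Ifit3: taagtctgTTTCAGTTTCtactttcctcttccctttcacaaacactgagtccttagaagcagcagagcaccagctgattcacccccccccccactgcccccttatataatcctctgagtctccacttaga
Within 250 bases of the start, 9 of 18 promoters of the interferon list held the element (50%), against 3.4% of all, and 17 of 115 promoters of genes that fell at least 4-fold (14.8%). The match is a description of these letters.

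Genes of the naive state fell in DKO cells. Of 25 naive state and quiescence genes 21 fell and none rose (median -1.31). In WT cells 20 fell and 1 rose (median -1.71). The genotype difference was positive for 4 members, among them Ms4a4b and Ms4a6b given below, and negative for 1, Klf6. Txnip, an inhibitor of glucose uptake, fell 8.42-fold (95% CI 5.91 to 12.01), the glucocorticoid-induced Tsc22d3 6.96-fold, the complement regulator Cd55 8.88-fold, and the mRNA decay factor Zfp36l2 3.64-fold. Klf6, a Krüppel-like factor, fell further than in WT cells: it measured 51.1, 62.1 and 61.5 on the DKO day 2 arrays and 459, 390.1 and 462 on the DKO day 0 arrays, against 288, 326 and 238 on the WT day 2 arrays and 546, 480.4 and 606 on the WT day 0 arrays. The day 2 groups of the genotypes did not overlap, and the responses differed by -1.96 ± 0.19 (log2, SE, adjusted p = 2.69e-06).

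Membrane proteins of the Ms4a family fell less than in WT cells. Ms4a4b, which is made by naive T cells, measured 142, 97.9 and 149 on the DKO day 2 arrays and 658, 753 and 740.0 on the DKO day 0 arrays, against 10.7, 11.96 and 28.9 on the WT day 2 arrays and 717, 664 and 588 on the WT day 0 arrays. At day 2 every DKO array lay above every WT array. It fell 5.61-fold (95% CI 3.62 to 8.71) in DKO cells and 42.4-fold (95% CI 27.3 to 65.7) in WT cells (difference 2.92 ± 0.43, log2, SE, adjusted p = 7.80e-04). Ms4a6b (1.81 ± 0.31, adjusted p = 0.0032) and Ms4a6c (1.68 ± 0.32, adjusted p = 0.0077) had positive differences too, and the 3 paralogs may share probe signal. Nsg2, a neuronal vesicle protein, fell 3.18-fold in DKO cells and 11.8-fold in WT cells (difference 1.89 ± 0.33, adjusted p = 0.0032).

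Of 18 chemokine and egress receptors 3 rose and 6 fell. S1pr1, the sphingosine 1-phosphate receptor by which T cells leave lymph nodes, measured 207, 179.5 and 223 at day 2 and 2482, 2275 and 2187 at day 0 in DKO cells and fell 11.4-fold (95% CI 7.76 to 16.8), with no overlap; S1pr4 fell 2.72-fold and the lymph node homing receptor Ccr7 2.50-fold. Of 15 integrin genes 2 rose and 4 fell, with the partners Itga4 and Itgb7, which bind in gut vessels, at 5.50-fold (95% CI 4.43 to 6.83) and 4.03-fold (95% CI 3.12 to 5.22) lower, and Itga6 3.76-fold lower. Itgb1 rose 2.40-fold (95% CI 1.96 to 2.94) in DKO cells and 4.92-fold (95% CI 4.02 to 6.03) in WT cells, a log2 difference of -1.03 ± 0.20 (SE, adjusted p = 0.0086). Of 8 GIMAP GTPases, which support lymphocyte survival, 5 fell: Gimap8 3.04-fold, Gimap3 2.86-fold, Gimap6 2.75-fold, Gimap4 2.41-fold and Gimap1 1.49-fold. In WT cells 7 of the 8 fell, and 1 genotype difference was positive.

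T cell receptor signalling genes fell, 15 of 25, and none rose (median -0.58). The falls numbered 20 with cyclic loess and 18 with a further quantile normalization. In WT cells 19 fell and 2 rose (median -0.71), and 1 genotype difference was negative. Dgka, which ends diacylglycerol signals, measured 502, 360.0 and 336 at day 2 and 2787, 2823 and 2812 at day 0 and fell 7.14-fold (95% CI 5.54 to 9.21). The kinase Txk fell 8.11-fold (95% CI 5.40 to 12.2), the adaptor Grap2 4.39-fold, the phosphatase Ptpn22 3.26-fold, the phospholipase Plcg1 2.49-fold and the receptor chain Cd3g 1.92-fold. The list holds activators and inhibitors of the pathway alike. Rasgrp2, an exchange factor for Rap1 outside the list, was among the 15 largest falls (10.98-fold, 95% CI 7.74 to 15.6), as were Hsd11b1 (13.2-fold), which reactivates glucocorticoids, the phospholipid flippase gene Atp8b4 (10.5-fold) and Rgs2 (10.4-fold), a brake on G protein signals.

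TH2 genes split into members that rose without Batf and members that did not. Of 20 TH2 genes 6 rose, 2 fell and 12 did not pass the test in DKO cells, with a median log2 change of 0.19, against 1.80 in WT cells, and 7 had a lower response than in WT cells by the test of the difference. Gata3, the master regulator of TH2 cells, measured 829, 685 and 729 at day 2 and 275, 279 and 303 at day 0 in DKO cells, without overlap. It rose 2.61-fold (95% CI 2.18 to 3.14), and its difference from the WT response did not pass the test (-0.59 ± 0.18, log2, SE, adjusted p = 0.13). Ccr8, a chemokine receptor of TH2 cells, rose 16.7-fold (95% CI 12.7 to 21.9) in DKO cells, with 161 ± 15.9 at day 2 and 9.68 ± 0.915 at day 0, and 33.8-fold (95% CI 25.7 to 44.4) in WT cells (adjusted p of the difference = 0.069). Gfi1, a repressor that aids TH2 cell growth, rose 1.95-fold.

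Ccr4, the other TH2 chemokine receptor, rose in both genotypes and by less in DKO cells. It measured 301, 262 and 265 on the DKO day 2 arrays and 15.9, 22.9 and 20.9 on the DKO day 0 arrays, against 683, 641 and 621 on the WT day 2 arrays and 20.0, 22.7 and 23.2 on the WT day 0 arrays. At day 2 the DKO arrays lay below all WT arrays. The rise was 14.0-fold (95% CI 11.5 to 17.0) in DKO cells and 29.5-fold (95% CI 24.3 to 35.8) in WT cells, and the difference was -1.08 ± 0.19 (log2, SE, adjusted p = 0.0041). Its promoter is shown because it was the 1 of 16 TH2 promoters with a match to the composite letters searched for Batf and Irf4. These were GAAA directly followed by TGANTCA, or GAAA, 4 bases and TGANTCA, on either strand. The form with TTTC, 4 bases and TGANTCA was not searched, so sites of that form are not counted here. The stretch lies on the minus strand of GRCm38.p6 (RefSeq) at chr9:114496545-114496704, with the match in capitals; it lies inside the gene's RefSeq span, which has an earlier start.
Ccr4: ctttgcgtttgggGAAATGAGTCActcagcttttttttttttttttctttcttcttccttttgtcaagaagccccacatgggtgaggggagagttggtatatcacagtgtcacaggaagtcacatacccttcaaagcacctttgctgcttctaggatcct
Such a match was present in 0.263% of all promoters, and in 1 of 119 promoters of genes with a negative difference (0.84%). It was also present in 2 of 265 promoters of genes that rose at least 4-fold in DKO cells (0.755%). These windows are short, and no binding was measured here.

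The TH2 cytokines Il4 and Il13 did not pass the test in DKO cells. Il4, which drives TH2 differentiation, measured 25.6, 24.8 and 19.6 on the DKO day 2 arrays and 17.7, 20.2 and 16.4 on the DKO day 0 arrays, against 237, 219 and 230.3 on the WT day 2 arrays and 18.7, 20.1 and 24.6 on the WT day 0 arrays. The DKO days overlapped near background, while all WT day 2 arrays stood clear. Il4 did not pass the test in DKO cells (adjusted p = 0.53) and rose 10.9-fold (95% CI 6.56 to 18.0) in WT cells, a difference of -3.08 ± 0.499 (log2, SE, adjusted p = 0.0019). Il13, which acts on epithelium and mucus, was 56.4 ± 20.0 at day 2 and 45.4 ± 3.53 at day 0 in DKO cells, against 276 ± 53.6 at day 2 and 48.2 ± 6.17 at day 0 in WT cells. Its difference of -2.25 ± 0.49 had an adjusted p of 0.020 and missed the threshold without DKO day 2 replicate 3 (0.051), DKO day 0 replicate 2 (0.051) or WT day 2 replicate 3 (0.056).

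Other secreted factors of WT cells at day 2 were also near background in DKO cells. Il10, the anti-inflammatory cytokine, measured 8.99, 7.50 and 9.05 on the DKO day 2 arrays and 7.60, 9.78 and 7.99 on the DKO day 0 arrays, against 59.4, 77.7 and 38.9 on the WT day 2 arrays and 7.56, 6.76 and 7.28 on the WT day 0 arrays. The DKO values were at background at both days. The difference was -2.96 ± 0.37 for Il10 (adjusted p = 8.85e-05), -3.56 ± 0.502 for Il24, a cytokine of the interleukin-10 family (adjusted p = 4.20e-04), and -3.13 ± 0.37 for Inhba, the activin A subunit (adjusted p = 5.70e-05). Nts, which encodes the peptide neurotensin, was 11.6 ± 2.56 at day 2 and 12.1 ± 2.76 at day 0 in DKO cells and rose 13.5-fold (95% CI 6.78 to 26.8) in WT cells (difference -3.82 ± 0.68, adjusted p = 0.0041).

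Of 28 cytokines 6 rose and 3 fell in DKO cells, 6 had negative and 1 a positive difference. Lif, an interleukin-6 family cytokine, measured 358, 314 and 444 at day 2 and 17.7, 19.5 and 18.0 at day 0 in DKO cells. It rose 20.0-fold (95% CI 14.0 to 28.7) with no overlap, and in WT cells 84.2-fold (95% CI 58.8 to 121), a difference of -2.07 ± 0.36 (log2, SE, adjusted p = 0.0031). Tnfsf11, the ligand RANKL, rose 2.58-fold (95% CI 2.01 to 3.31), and Ltb and Il16, a lymphotoxin subunit and a ligand of CD4, fell 2.31-fold and 1.96-fold. Csf1, the macrophage growth factor, was the member with a positive difference. It measured 88.5, 54.0 and 117 on the DKO day 2 arrays and 34.8, 30.6 and 29.6 on the DKO day 0 arrays, against 24.7, 20.9 and 25.7 on the WT day 2 arrays and 22.6, 33.1 and 27.97 on the WT day 0 arrays. The DKO day 2 arrays stood above all others, and the difference was 1.60 ± 0.30 (log2, SE, adjusted p = 0.0063).

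**Figure D3:**
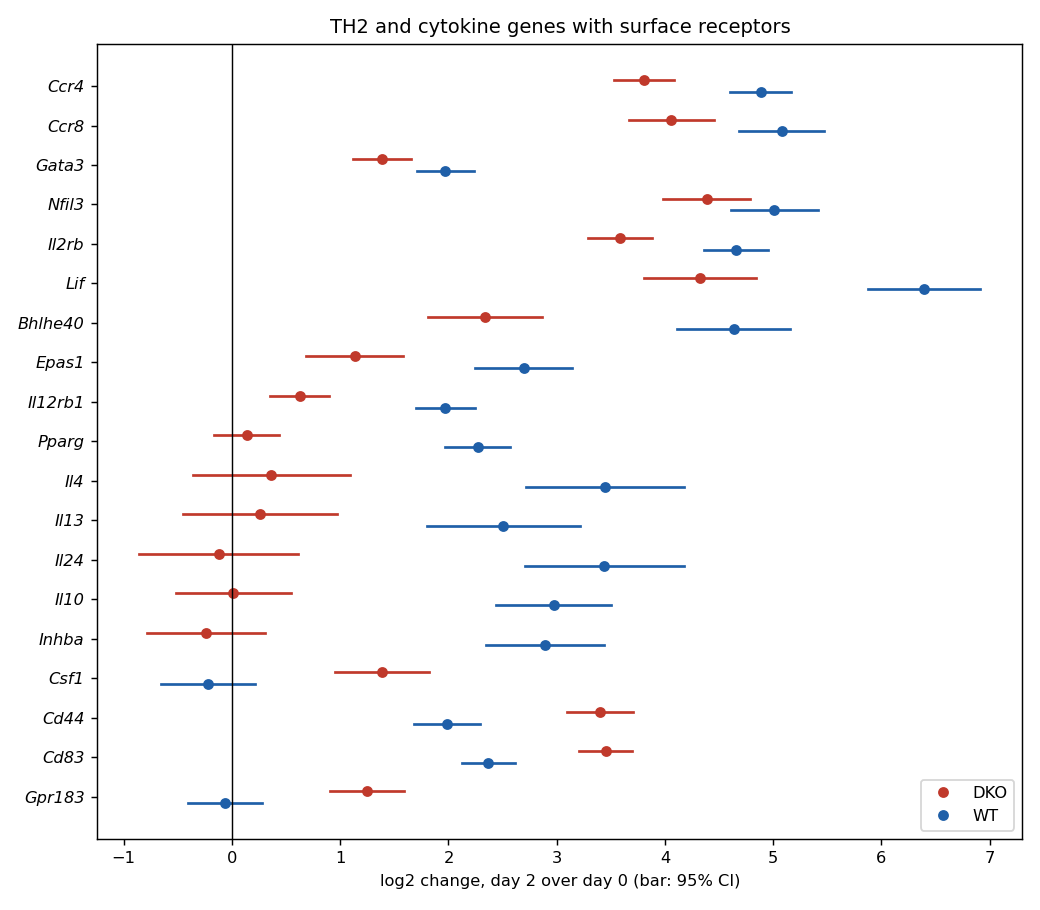
Log2 change from day 0 to day 2, with 95% CI, of 19 TH2, cytokine and surface receptor genes in DKO (red) and WT (blue) cells. Il4, Il13, Il24, Il10, Inhba and Pparg lie near 0 in DKO cells and to the right in WT cells, and Csf1, Cd44, Cd83 and Gpr183 lie further right in DKO cells.

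Regulators of helper lineages moved both ways. In the list of 20, 6 rose and 7 fell, or 4 fell when replicate 2 of either DKO day was left out. Bhlhe40, a helix-loop-helix factor that controls cytokine output of helper cells, measured 95.1, 104 and 81.1 on the DKO day 2 arrays and 18.9, 15.6 and 21.2 on the DKO day 0 arrays, against 444, 519 and 413 on the WT day 2 arrays and 14.6, 16.5 and 25.8 on the WT day 0 arrays. It was higher at day 2 in both genotypes, 5.04-fold (95% CI 3.50 to 7.26) in DKO cells and 24.8-fold (95% CI 17.2 to 35.7) in WT cells, with a difference of -2.30 ± 0.36 (log2, SE, adjusted p = 0.0015). Eomes, a T-box factor of memory and cytotoxic cells, rose 4.47-fold (95% CI 2.91 to 6.86) in DKO cells, and Runx1 and Ikzf1 fell 2.75-fold and 1.87-fold. Pparg, a nuclear receptor active in TH2 cells, stood at 16.7 ± 1.39 at day 2 and 15.3 ± 1.76 at day 0 in DKO cells and rose 4.82-fold (95% CI 3.92 to 5.93) in WT cells (difference -2.13 ± 0.20, adjusted p = 2.67e-06), and the hypoxia factor Epas1 rose 2.20-fold in DKO and 6.48-fold in WT cells (difference -1.56 ± 0.31, adjusted p = 0.0094).

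Surface receptors of T cells rose and fell in like numbers. Of 30 costimulatory and inhibitory receptors 11 rose and 10 fell. The inhibitory receptor Lag3 rose 10.4-fold (95% CI 8.06 to 13.5), the costimulatory receptors Tnfrsf4 (OX40) 8.64-fold (95% CI 6.73 to 11.1), Icos 2.76-fold and Tnfrsf18 (GITR) 3.74-fold. Slamf1 stood at 122 ± 9.63 at day 2 and 145 ± 10.4 at day 0 in DKO cells and rose 2.20-fold (95% CI 1.77 to 2.75) in WT cells (difference -1.39 ± 0.22, log2, SE, adjusted p = 0.0015). In the list 3 differences were positive and 3 negative.

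Cd44 and Cd83 rose more in DKO cells. Cd44, the hyaluronan receptor used as a marker of activated cells, measured 351, 229 and 212 on the DKO day 2 arrays and 24.7, 28.003 and 21.0 on the DKO day 0 arrays, against 109, 106 and 122 on the WT day 2 arrays and 30.8, 27.8 and 26.3 on the WT day 0 arrays. At day 2 all DKO arrays were above all WT arrays. The difference was 1.41 ± 0.21 for Cd44 (log2, SE, adjusted p = 7.80e-04) and 1.08 ± 0.17 for Cd83 (adjusted p = 0.0014), which rose 10.9-fold (95% CI 9.22 to 13.0) in DKO cells and 5.16-fold (95% CI 4.35 to 6.12) in WT cells. Gpr183, an oxysterol receptor that positions lymphocytes, rose 2.37-fold (95% CI 1.87 to 3.01) in DKO cells and stood at 294 ± 74.5 at day 2 and 301 ± 19.6 at day 0 in WT cells (difference 1.31 ± 0.24, adjusted p = 0.0046). In its list of 18 chemokine and egress receptors 3 rose and 6 fell.

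Of 13 chemokines 1 rose and 2 fell, against 15.3% and 13.3% of all genes, and the falls numbered between 0 and 1 with any of 5 DKO arrays left out, all but DKO day 0 replicate 3. Of 12 granzyme and cytotoxic granule genes none rose and 2 fell, the falls a share near that of all genes: the pore protein Prf1 (2.38-fold, 95% CI 1.92 to 2.94) and the protease Ctsw (2.76-fold). Gzmb, the granzyme of killer cells, stood at 15.6 ± 0.933 at day 2 and 16.4 ± 1.03 at day 0 in DKO cells.

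Survival genes changed in both directions. In the BCL2 family 5 of 13 rose and 2 fell, or 3 rose without DKO day 0 replicate 1. The genotype difference in this family was positive for 1 gene, Bcl2l11, and negative for 2. The survival protein Bcl2l1 rose 5.32-fold (95% CI 4.23 to 6.70), while Mcl1 and Bcl2, which also protect cells, fell 1.81-fold and 1.48-fold. Bcl2l11, the pro-apoptotic protein BIM, measured 316, 245 and 220.1 on the DKO day 2 arrays and 129, 125 and 216 on the DKO day 0 arrays, against 109, 92.9 and 109.9 on the WT day 2 arrays and 129.9, 149.6 and 152 on the WT day 0 arrays. It was higher at day 2 than at day 0 in DKO cells (1.69-fold, 95% CI 1.30 to 2.21), and its difference of 1.23 ± 0.26 (log2, SE, adjusted p = 0.019) missed the threshold without DKO day 0 replicate 1 (0.052), DKO day 0 replicate 2 (0.059) or WT day 2 replicate 2 (0.063). Of 13 p53 targets 4 rose and 3 fell, with the pro-apoptotic Ei24 3.09-fold higher and the antiproliferative Btg2 8.66-fold (95% CI 6.81 to 11.03) lower. Among these targets 1 genotype difference was negative.

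Chromatin enzymes split evenly. Of 14 DNA methylation and Polycomb genes 6 rose and 6 fell. Ezh2, the histone H3 methyltransferase of dividing cells, measured 714, 636 and 687 at day 2 and 138, 133 and 115 at day 0 in DKO cells and rose 5.29-fold (95% CI 4.51 to 6.21), against 9.75-fold (95% CI 8.31 to 11.4) in WT cells (difference -0.88 ± 0.16, log2, SE, adjusted p = 0.0046), while its paralog Ezh1 fell 2.27-fold. The methyltransferase Dnmt3a rose 2.38-fold (95% CI 1.98 to 2.86), and the demethylating enzymes Tet1 and Tet3 fell 4.66-fold (95% CI 3.04 to 7.16) and 2.50-fold.

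The 209 genes with a genotype difference fell into 4 kinds by where the change itself passed the test. For 96 it passed in both genotypes in one direction, and 85 of these changed less and 11 more in DKO cells. For 76 the change passed in WT cells and not in DKO cells, for 24 in DKO cells and not in WT cells, and for 13 it passed in both and in opposite directions. The count of 209 was 98 without WT day 2 replicate 2, 117 without WT day 2 replicate 1, 132 without DKO day 2 replicate 3, and also 132 when replicate 2 of DKO day 0 was left out, and 2932 genes had an unadjusted p under 0.05. The positive share of the calls was 29.2% and became 40.9% (65 positive and 94 negative) with a further quantile normalization of the genes and 40% (68 positive and 102 negative) with cyclic loess.

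**Figure D4:**
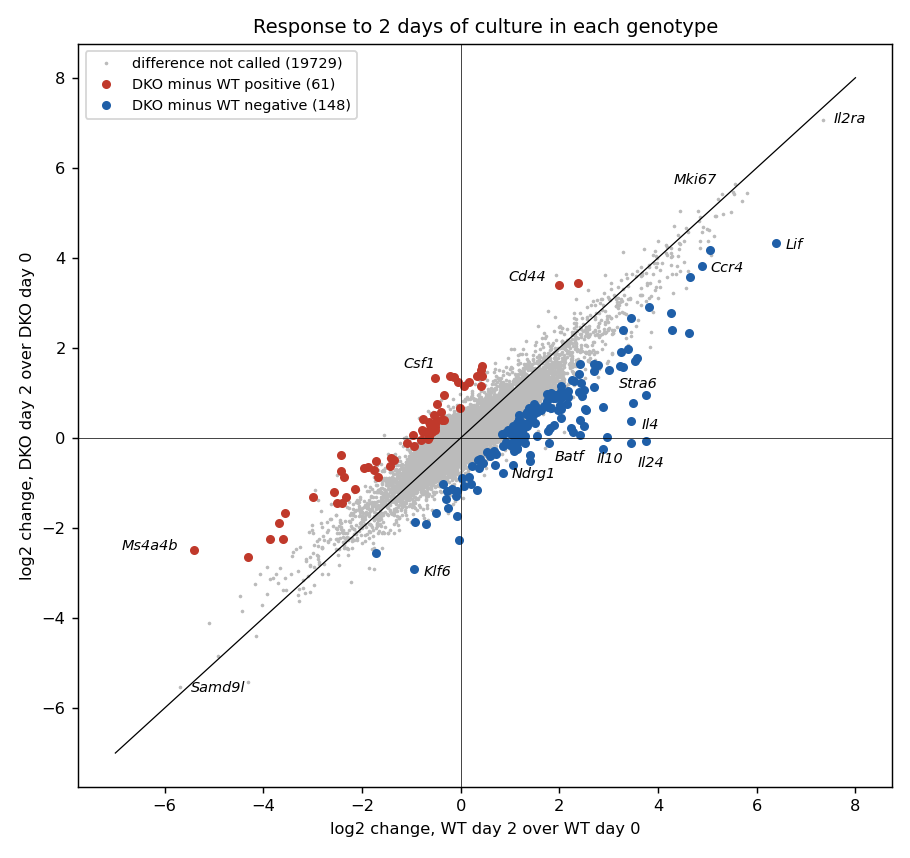
Log2 change from day 0 to day 2 of 19938 genes in DKO cells (vertical) and WT cells (horizontal), with the 61 genes of positive difference in red, the 148 of negative difference in blue and a line of equal change. Il4, Il10, Il24 and Batf lie near 0 on the vertical axis and Csf1 near 0 on the horizontal, while Il2ra and Mki67 lie on the line.

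Genes that fell in DKO cells but rose in WT cells included Ndrg1, a gene induced by stress and hypoxia. It measured 31.3, 23.9 and 34.0 on the DKO day 2 arrays and 49.7, 55.6 and 46.4 on the DKO day 0 arrays, against 115, 119 and 70.8 on the WT day 2 arrays and 46.3, 54.9 and 65.1 on the WT day 0 arrays. It fell 1.71-fold (95% CI 1.31 to 2.23) in DKO cells and rose 1.81-fold (95% CI 1.38 to 2.36) in WT cells (difference -1.63 ± 0.26, log2, SE, adjusted p = 0.0019). Nsf, the ATPase that recycles membrane fusion complexes, fell 1.53-fold (95% CI 1.24 to 1.89) in DKO cells and rose 1.63-fold (95% CI 1.32 to 2.01) in WT cells (difference -1.31 ± 0.21, adjusted p = 0.0016). Masp2, a complement protease, stood at 32.2 ± 3.46 at day 2 and 44.2 ± 4.30 at day 0 in DKO cells, not far from background, with a difference of -0.85 ± 0.16 (adjusted p = 0.0070).

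A vitamin transporter and a poly(A) polymerase stood near the top of the negative differences by adjusted p. Stra6, the vitamin A transporter, measured 96.0, 97.1 and 102 on the DKO day 2 arrays and 51.9, 68.4 and 52.9 on the DKO day 0 arrays, against 587, 643 and 459.6 on the WT day 2 arrays and 51.5, 43.9 and 53.1 on the WT day 0 arrays. It was higher at day 2 in both genotypes and its difference was -2.72 ± 0.32 (log2, SE, adjusted p = 5.70e-05). Tent5a, a poly(A) polymerase, fell 4.83-fold (95% CI 3.61 to 6.45) in DKO cells, while in WT cells it was 206 ± 26.8 at day 2 and 210.2 ± 6.44 at day 0 (difference -2.24 ± 0.29, adjusted p = 1.26e-04). Etv5, an ETS factor, was 31.6 ± 4.27 at day 2 and 23.9 ± 0.484 at day 0 in DKO cells and rose 5.38-fold (95% CI 3.77 to 7.66) in WT cells (difference -2.03 ± 0.35, adjusted p = 0.0031). On the positive side, Arhgap20, a GTPase regulator, rose 2.56-fold (95% CI 1.91 to 3.45) in DKO cells and Tex35 2.52-fold (95% CI 1.78 to 3.58), with differences of 1.495 ± 0.29 (adjusted p = 0.0094) and 1.86 ± 0.35 (adjusted p = 0.0063). Pros1, which encodes protein S, an anticoagulant and ligand of the TAM receptors, was among the 15 largest rises in DKO cells, at 32.7-fold (95% CI 25.8 to 41.4).

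Markers of other cell types were read to check the label. Of 30 measured markers of CD8 T, B, NK, myeloid, dendritic, mast, red and thymocyte cells, 22 stayed at or below an intensity of 28.6 on all 6 DKO arrays, 2 rose and 5 fell. Their summed intensity ran from 473 to 568 in DKO cells at day 2 and from 511 to 549.5 at day 0, while Cd3e, a receptor chain of T cells, ran from 930.2 to 1342 at day 2 and from 1971 to 2319 at day 0. Cd4, the coreceptor that names these T cells, was added after values were seen and averaged 628 ± 43.9 in DKO cells at day 2 and 943 ± 106 at day 0 (SD, n = 3 each), a 1.498-fold fall (adjusted p = 0.0012), while Cd8a averaged 22.3 ± 0.947 at day 2 and 23.0 ± 4.52 at day 0. By type, none of 2 CD8 T, 4 mast cell and basophil, 1 red cell and 2 thymocyte markers moved, 1 of 4 B cell and 1 of 6 dendritic cell markers rose, and 2 of 4 NK and 3 of 7 myeloid markers fell. The genotype difference passed the test for 1 of the 30 markers, a dendritic cell marker, and was positive. The myeloid genes S100a8 and Itgam fell 2.75-fold and 1.86-fold, with S100a8 at 9.11 ± 1.19 at day 2 and 29.3 ± 16.6 at day 0, levels near background. Cd74, an antigen presentation chaperone, rose 2.78-fold (95% CI 2.03 to 3.80), with 97.1 ± 40.5 at day 2 and 33.4 ± 5.24 at day 0 in DKO cells. The 5 falls became 3 when DKO day 2 replicate 1 was left out and 2 without replicate 3 of DKO day 0.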

How the data were processed

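RNA of naive and cultured mouse CD4 T cells was measured on 24 Affymetrix mouse gene arrays in 8 groups of 3, assigned from their titles. Each deposited value is an intensity from the authors' RMA run, which corrects background, quantile-normalizes and summarises probes, per the submitters' processing notes; its version is not given in the sources used here. Values span 1.95 to 14644.9 on a linear scale and were turned to log2 for testing. This normalization removes a change shared by most genes. No scan date or batch was found in the labels or the table, so none was tested.

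Of 35556 probe sets, 21789 carry 1 gene symbol in the platform annotation, 1621 several and 12146 none; the last 2 kinds were left out. Where a gene had more than 1 (999 genes), its probe set of highest mean was used, leaving 19938 genes, and 21698 probe sets matched the RefSeq mouse table. No build is named for the arrays. Promoters came from the RefSeq table (GRCm38.p6), which held 15614 of the genes.

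One model of all 8 group means was fitted with limma 3.58.1 in R 4.3.3 (16 residual and 7.49 prior degrees of freedom), with 3 contrasts: DKO day 2 minus day 0, WT day 2 minus day 0, and their difference. Benjamini-Hochberg adjustment ran over all genes of a contrast. The script was tested on simulated data.

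The 45 gene lists (722 of 772 genes measured) and the genes named were chosen with earlier results of these data known. Named genes follow a rule. They include Batf, Batf2, Batf3 and Irf4, the 15 largest called rises and falls and the 15 largest called differences of each sign. These rises and falls were taken only from genes whose DKO day 2 and day 0 arrays did not overlap. Genes that moved in opposite directions were added. Each list gave up to 6 genes by p in DKO cells and up to 3 by p of the difference. Lists of up to 12 gave all members. Not all are printed, and exceptions are marked. Alternatives were a filter on genes with a mean at or below the median probe set, averaging the probe sets of a gene, every probe set, cyclic loess or quantile normalization, a fit of only the compared groups, replicate numbers as blocks, robust moderation with a variance trend, weights for arrays, and leaving out single arrays.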

Additional observations from a re-analysis of the deposited data

Results flagged for a closer look

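The response to 2 days of culture differed between DKO and WT cells, by the limma test of the difference itself, for each gene in these paragraphs. Values are the log2 change in DKO cells minus that in WT cells with its SE. No explanation was tested for any of them.

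Among genes of differentiation the values were -3.08 ± 0.499 for Il4, -2.25 ± 0.49 for Il13, -2.96 ± 0.37 for Il10, -3.56 ± 0.502 for Il24, -3.13 ± 0.37 for Inhba, -2.07 ± 0.36 for Lif, -2.13 ± 0.20 for Pparg, -1.56 ± 0.31 for Epas1 and -1.08 ± 0.19 for Ccr4. The factors Batf (-2.36 ± 0.22), Bhlhe40 (-2.30 ± 0.36), Stat3 (-1.10 ± 0.18), Klf6 (-1.96 ± 0.19), Etv5 (-2.03 ± 0.35) and Hif1a (-0.80 ± 0.16) and the methyltransferase Ezh2 (-0.88 ± 0.16) also had negative values. Receptors with negative values were Il2rb (-1.07 ± 0.20), Il12rb1 (-1.34 ± 0.19), Slamf1 (-1.39 ± 0.22) and Itgb1 (-1.03 ± 0.20).

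Further negative values belonged to the transporters Slc2a3 (-1.59 ± 0.34), Slc16a1 (-1.08 ± 0.22), Slc39a10 (-1.27 ± 0.24) and Stra6 (-2.72 ± 0.32) and the glycolytic enzymes Hk2 (-1.43 ± 0.33), Pfkl (-0.98 ± 0.24) and Pfkp (-0.85 ± 0.20). Nts (-3.82 ± 0.68), Tent5a (-2.24 ± 0.29), Dusp4 (-1.60 ± 0.32), Ndrg1 (-1.63 ± 0.26), Nsf (-1.31 ± 0.21) and Masp2 (-0.85 ± 0.16) complete the negative group. In WT cells Ndrg1, Nsf and Masp2 rose while they fell in DKO cells.

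Positive values were measured for Ms4a4b (2.92 ± 0.43), Ms4a6b (1.81 ± 0.31), Ms4a6c (1.68 ± 0.32), Nsg2 (1.89 ± 0.33) and Ccr7 (1.01 ± 0.25), which fell in both genotypes and less in DKO cells. The difference of Ccr7 missed the threshold in 9 of 12 fits with one array left out, all but those without DKO day 2 replicate 3, WT day 2 replicate 1 or WT day 0 replicate 3. Positive values of genes that rose in DKO cells were 1.41 ± 0.21 for Cd44, 1.08 ± 0.17 for Cd83, 1.60 ± 0.30 for Csf1, 1.31 ± 0.24 for Gpr183, 1.23 ± 0.26 for Bcl2l11, 1.495 ± 0.29 for Arhgap20 and 1.86 ± 0.35 for Tex35.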

How the results depend on the processing

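Of 207 changes in DKO cells named above, 203 passed the test under each of 9 alternative settings that tested them and with each of 12 arrays left out in turn, as did 36 of 45 named genotype differences, and no direction reversed. Of the 203, 8 were not tested without dim genes, which leaves them out: Atp8b4, Cd55, Ifi208, Ifit1, Itgam, Rtp4, S100a8 and Slfn5. With the compared groups fitted alone the difference of Ccr7 did not pass (adjusted p = 0.058), and with cyclic loess the DKO change of Pfkp did not (adjusted p = 0.088). With one array left out, 2721 to 3081 genes rose and 2284 to 2705 fell in DKO cells. The genotype difference was called for 98 to 257 genes, 25 to 65 positive and 73 to 192 negative. A further quantile normalization of the genes gave 94 negative differences.

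Among the lists, the falls in T helper lineage regulators ranged from 4 to 8, in chemokines from 0 to 2 and in markers of other cell types from 2 to 5, and the rises in the BCL2 family from 3 to 5, with one array left out. Without dim genes, 0 chemokines and 0 markers of other cell types fell, since most of them were left out.

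The replicate number as a block gave 3037 rises, 2638 falls and 210 genotype differences. Deviations from the group means of same-numbered DKO arrays at day 2 and day 0 were set against each other. Their correlations were 0.0148 for number 1, -0.00442 for number 2 and -0.0113 for number 3. Array noise enters these deviations, so they cannot show whether same-numbered arrays shared a mouse or culture. The numbers were not used to pair the samples in the main fit. Precision is limited by 3 arrays a group and, near an intensity of 28.6, by background.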

Other observations

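The day 4 arrays are outside the comparison, and their levels of a few genes named above are given as values without a test. Il4 averaged 17.7 ± 2.58 in DKO cells at day 4 with 2.2 ng/ml of anti-CD3e and 21.3 ± 2.39 with 10 ng/ml, against 46.7 ± 46.1 and 330.4 ± 61.7 in WT cells. Il10 averaged 8.73 ± 1.23 and 8.33 ± 0.804 in DKO cells, against 428 ± 146 and 589.9 ± 267 in WT cells, and Bhlhe40 40.7 ± 9.44 and 379.6 ± 45.4 in DKO cells, against 261 ± 113 and 905 ± 311 in WT cells, at the lower and the higher dose. At 10 ng/ml Il4 was near background on the DKO arrays and not on the WT arrays.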
